A study of Mus musculus with 2 samples.

Results

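The 40 genes described here encode the machinery of autophagy and mitophagy. They were taken from a named list of that machinery, and each was found on the array through the accession of its probes. They are 40 of 20665 genes that could be named and 40 of 16889 genes read well above background on both arrays, so every one of them could be measured. Autophagy wraps cytoplasm or a damaged organelle in a double membrane and delivers it to the lysosome. A kinase complex around ULK1 starts the process, a lipid kinase complex around Beclin 1 marks the site, ubiquitin-like conjugation couples the ATG8 proteins (LC3 and GABARAP) to the membrane, and receptors tie the cargo to ATG8. Mitophagy is the removal of mitochondria by this route, and in macrophages autophagy is also known for clearing microbes and for restraining the inflammasome.

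RAW264.7 is an established male macrophage-like line of BALB/c origin, obtained from the ascites of a tumor induced by Abelson murine leukemia virus. One culture was treated with vehicle control and 1 culture with IR-61, a near-infrared fluorescent small molecule described as mitochondria-targeting, both for 24 h in DMEM with 10% heat-inactivated serum, with the dose, 10 μM, taken from a legend rather than the labels. RNA of each culture was read on its own Agilent array of the single-colour type, and slide and scan were common to both. Because neither condition was replicated, no test was possible and p-values are absent, and the treatment cannot be told apart from any other difference between the cultures. The array measures transcripts and not the flux through autophagy.

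Signals are given relative to their array, as multiples of its 75th percentile (1263 intensity units with vehicle, 1772 with IR-61). Differences are on the log2 scale, with the vehicle value subtracted from that of IR-61. Probes bind with different strength, so the relative signals of different genes do not give the order of their transcripts, and the sums over marker lists below are sums of probe signals. A gene with several probes takes the probe with the highest mean signal. The spot SD after each difference is the error expected from the spread between repeated spots within the arrays, and it leaves out the spread between cultures. For a gene read by 1 spot it was 0.094 where the log2 intensity was 10 or more on both arrays and 0.229 where it was between 6 and 10 on both. Genes at 1.5-fold or more, a log2 difference of 0.58, are called higher or lower, and this limit is a description without an error rate.

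The label of the cells was checked against marker genes. Of 10 macrophage markers 9 had a named probe, *Cd68* being the exception, and all 9 were well above background on both arrays. Their relative signals summed to 161 (vehicle) and 214 (IR-61), while the median of their differences was −0.038. The brightest probe with vehicle was that of *Csf1r*, the receptor of macrophage colony-stimulating factor, at 75.2 and 78.6. The differences within this list ran from −0.98 for *Cd14*, a co-receptor for bacterial lipopolysaccharide, at 5.72 and 2.91, to 1.03 for *Adgre1*, which encodes F4/80, at 41.6 and 84.6. The 4 fibroblast markers were also well above background, although the label names a macrophage line, and their relative signals summed to 47.2 (vehicle) and 59.0 (IR-61), with a median difference of 0.21. The brightest of their probes on both arrays, that of *Col1a1*, a chain of type I collagen, read 21.5 and 33.1. That was a 1.54-fold higher signal, a difference of 0.62 (spot SD 0.094). *Col1a2* read 11.9 and 12.7, a difference of 0.099, and *Dcn* 13.1 and 12.3, a difference of −0.094 (spot SD 0.094 each). *Pdgfra* read 0.681 and 0.855, a difference of 0.33 (spot SD 0.039). Of 4 neutrophil markers 3 had a probe, *Ly6g* being the exception, and all 3 were detected, with sums of 3.90 and 5.15. The brightest probe, that of *S100a8*, read 3.86 and 5.09, a difference of 0.40 (spot SD 0.094). The median difference of 0.63 was the value of the dim *S100a9* (spot SD 0.456), and the dim *Mpo* stood at 0.64 (spot SD 0.376). Of 4 T cell markers 3 were detected, with sums of 1.65 and 1.71, a median difference of 0.076 and the brightest probe for *Cd4*, and *Cd3g* was not well above background. The 4 B cell markers summed to 0.489 and 0.313, with a median difference of 0.023. *Ms4a1*, the brightest with vehicle, read 0.279 and 0.102, and *Cd79a* and *Pax5* had differences of 0.14 and 0.36. Of 3 epithelial markers *Krt8* alone was detected, at 0.0206 and 0.0154, and *Epcam* and *Cdh1* were not well above background. The part of these markers in the differences below was not tested, and in a bulk sample fewer cells of a type and less RNA per cell cannot be told apart.

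Across the 40 genes the differences lay on both sides of 0, with 20 above and 20 below, while of all 16889 genes 10334 were above 0 and 6555 below. Their median was 0.0059, against 0.10 over all 16889 genes measured, and their SD across genes was 0.45 against 0.44. With normexp background correction the order of the medians turned, at −0.018 for the 40 genes and −0.032 for all genes. At 1.5-fold or more, 4 genes were higher with IR-61 (10.0% of the 40, against 9.8% of all genes) and 5 were lower (12.5%, against 5.68%), together 22.5% against 15.5%. The higher genes were *Wipi2*, *Atg4c*, *Atg10* and *Ulk1*, and the lower genes were *Sqstm1*, *Tax1bp1*, *Optn*, *Becn1* and *Atg4b*. At 2-fold or more, 2 of the 40 were lower, against 1.39% of all genes, and 0 were higher, against 1.99%, together 5.0% against 3.38%. With scaling by the median of each array, 7.02% of all genes were higher and 7.57% lower by 1.5-fold or more, and of the 40 genes 3 were higher and 5 lower. Many of the 40 are bright, and brighter genes have less noise. Among the 28 with a log2 intensity of 10 or more on both arrays, 4 were higher and 3 lower by 1.5-fold or more, together 25.0%. Of all 7050 genes that bright, 7.35% were higher and 4.55% lower, together 11.9%. At 2-fold, 2 of the 28 were lower, against 0.908%, and 0 higher, against 0.823%, with 1.73% of these genes past it either way.

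**Figure D1:**
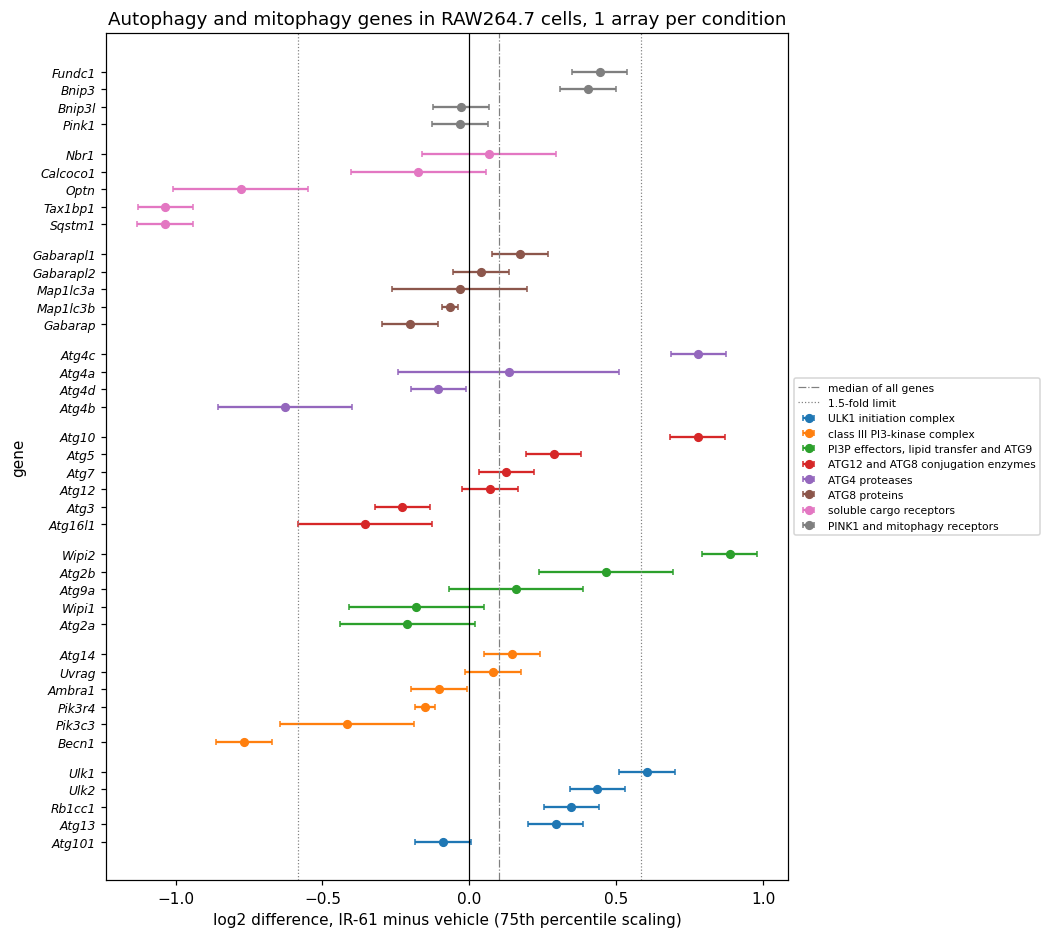
Log2 difference (IR-61 minus vehicle) of the 40 autophagy and mitophagy genes, 1 point per gene and coloured by role. Bars are the spot SD, dotted lines the 1.5-fold limit and the dash-dotted line the median of all genes, 0.10. *Sqstm1* and *Tax1bp1* lie lowest, both at −1.04, and *Wipi2* highest, at 0.89.

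The soluble cargo receptors held 3 of the 5 lower genes. These proteins link cargo, often tagged with ubiquitin, to ATG8 proteins. Of the 5 receptors 3 were lower with IR-61 by 1.5-fold or more, against 5.68% of all genes, and 0 were higher, against 9.8%. Their median difference was −0.78, against 0.10 over all genes. *Sqstm1*, which encodes p62, the receptor of protein aggregates that also binds the NRF2 inhibitor KEAP1, read 6.45 with vehicle and 3.15 with IR-61. Its difference was −1.04 (spot SD 0.094), a 2.05-fold lower signal, and it took rank 216 of the 16889 genes counted from the lowest difference. *Tax1bp1*, a receptor that also serves as an adaptor of the NF-κB inhibitor A20, read 6.77 with vehicle and 3.30 with IR-61. It stood next to *Sqstm1* at rank 217, with a difference of −1.04 (spot SD 0.094) and a 2.05-fold lower signal. *Optn*, which encodes optineurin, a receptor for damaged mitochondria and for bacteria, read 0.605 and 0.353. Its signal was 1.72-fold lower with IR-61, a difference of −0.78 (spot SD 0.229) at rank 470. The other two receptors differed by less than the spot SD of 0.229. *Nbr1*, the receptor related to p62, read 0.209 and 0.219, a difference of 0.067, and *Calcoco1*, a receptor for the endoplasmic reticulum and Golgi, read 0.0763 and 0.0677, a difference of −0.17. The differences of *Sqstm1*, *Tax1bp1* and *Optn* were below 0 under each of the 11 settings, and each gene was read by 1 probe, so no other probe bears on them. Their differences lay between −1.12 and −0.55 for *Sqstm1* and *Tax1bp1* and between −0.86 and −0.29 for *Optn*, and the smallest were those without scaling, at which none of them passed 1.5-fold. Leaving out the scaling lifted the median of all genes from 0.10 to 0.59. Measured from the median of all genes in the same setting, the differences spanned −1.15 to −0.94 for *Sqstm1*, −1.15 to −0.97 for *Tax1bp1* and −0.88 to −0.65 for *Optn*.

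The 250 bases before the start of the gene are given for the 3 receptors that were lower by 1.5-fold or more. They are as RefSeq has them on the mouse assembly GRCm38.p6. The window of *Sqstm1* is chr11:50210821-50211070 on the minus strand, the first listed window of *Tax1bp1* is chr6:52713479-52713728 on the plus strand, and that of *Optn* is chr2:5064118-5064367 on the minus strand. Capitals mark a match to the κB site, the consensus bound by NF-κB, which was found in *Sqstm1* and in neither of the windows shown for the other two.
Sqstm1: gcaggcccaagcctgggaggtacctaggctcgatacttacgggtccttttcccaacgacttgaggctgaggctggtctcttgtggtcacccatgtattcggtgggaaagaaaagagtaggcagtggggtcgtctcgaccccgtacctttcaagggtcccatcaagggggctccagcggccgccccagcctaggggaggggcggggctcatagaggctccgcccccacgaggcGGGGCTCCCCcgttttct
Tax1bp1: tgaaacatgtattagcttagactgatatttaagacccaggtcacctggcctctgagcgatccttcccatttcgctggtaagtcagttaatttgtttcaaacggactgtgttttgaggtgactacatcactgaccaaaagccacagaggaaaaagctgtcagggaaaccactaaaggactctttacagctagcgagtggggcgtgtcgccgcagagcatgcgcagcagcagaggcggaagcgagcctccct
Optn: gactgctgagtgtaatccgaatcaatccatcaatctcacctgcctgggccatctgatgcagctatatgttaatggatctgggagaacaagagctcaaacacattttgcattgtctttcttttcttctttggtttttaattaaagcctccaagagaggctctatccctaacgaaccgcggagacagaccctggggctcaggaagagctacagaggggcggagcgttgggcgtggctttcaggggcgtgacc
Both strands of the promoter windows were searched, and 33 of the 40 genes had a window. *Rb1cc1*, *Becn1*, *Pik3c3*, *Atg12*, *Atg16l1*, *Map1lc3a* and *Bnip3l* were not matched. The κB site was present in 3 of the 33 genes (9.09%), against 8.23% of all 27025 genes with a window. The 3 genes were *Sqstm1*, *Atg101* and *Fundc1*, with differences of −1.04, −0.090 and 0.44, so they lay on both sides of 0. The core TGACNNNGC of the antioxidant response element, the site of NRF2, was present in 3 of the 33 (9.09%), against 11.5% of all genes. These were *Tax1bp1*, in its second listed window, *Ulk2* and *Atg13*, with differences of −1.04, 0.44 and 0.29. The E-box core CACGTG, which is part of the element bound by TFEB, was present in 4 of the 33 (12.1%), against 6.86% of all genes. They were *Atg3*, *Atg5*, *Atg7* and *Bnip3*, with differences of −0.23, 0.29, 0.13 and 0.40, none past 1.5-fold. The longer form TCACGTGA, which contains that core, was present in *Atg3* alone, or 3.03%, against 0.907% of all genes. A match describes letters in a window and does not show that a factor binds there.

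The ULK1 initiation complex gave differences above 0 for 4 of its 5 genes, and 1 of them passed 1.5-fold. Of all 16889 genes 10334 were above 0, and 9.8% were higher by 1.5-fold or more. *Ulk1*, the kinase that starts autophagy when nutrients or energy are scarce, read 10.1 with vehicle and 15.3 with IR-61. Its difference was 0.60 (spot SD 0.094), a 1.52-fold higher signal, and it passes the limit narrowly. It was between 0.52 and 0.57, short of the limit, with scaling by the median, by the 75th percentile over detected probes, with quantile normalization, loess and the deposited log2 values. The related kinase *Ulk2* read 2.15 and 2.90, a difference of 0.44, and its dimmer probe gave 0.63. *Atg13*, the scaffold that joins the kinase to its partners, read 9.51 and 11.7, a difference of 0.29. *Rb1cc1*, which encodes FIP200, the large scaffold of the complex, had probes that disagreed. One read 0.873 and 1.11, a difference of 0.35, and the other 0.903 and 0.777, a difference of −0.22 (spot SD 0.094 each). *Atg101*, which stabilizes ATG13, read 1.58 and 1.49, a difference of −0.090 that is within the spot SD of 0.094. The differences of *Ulk1*, *Ulk2*, *Atg13* and *Rb1cc1* were above 0 under all 11 settings, and that of *Atg101* was below 0 except without scaling, at 0.40. For *Rb1cc1* the mean over both probes gave 0.065, against an all-gene median of 0.078 in that setting. The other settings read a single probe of the gene, so their shared sign does not bear on the disagreement.

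The class III PI3-kinase complex makes the lipid PI3P at the site of membrane formation. Of its 6 genes 1 was lower by 1.5-fold or more, against 5.68% of all genes. Of all genes 15.5% passed the limit either way. *Becn1*, which encodes Beclin 1, the regulatory subunit bound and held inactive by BCL2, read 1.13 with vehicle and 0.666 with IR-61. Its signal was 1.70-fold lower, a difference of −0.77 (spot SD 0.094) at rank 490, and the difference was below 0 under all 11 settings, between −0.85 and −0.28, the latter without scaling and not past 1.5-fold. The catalytic subunit *Pik3c3* read 0.560 and 0.420, a difference of −0.42 (spot SD 0.229), and its dimmer probe gave −0.38. The difference of *Pik3c3* was 0.071 without scaling and below 0 under the remaining settings. *Pik3r4*, the membrane-anchored regulatory subunit, was printed as 10 spots per array. Its scaled log2 signal had a lowest spot of −0.32, a median of −0.14 and a highest spot of −0.047 with vehicle. With IR-61 these were −0.43, −0.28 and −0.22. The spots of the conditions overlapped, and the difference of the means was −0.15 (spot SD 0.034), or 0.34 without scaling. The highest value of this group was that of *Atg14*, the subunit that directs the kinase to autophagy, at 1.20 and 1.32, a difference of 0.15 (spot SD 0.094). *Uvrag*, the alternative subunit used at endosomes, and *Ambra1*, a Beclin 1 regulator, had differences of 0.080 and −0.10.

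The proteins that read PI3P and feed lipid to the growing membrane included the highest value of all 40 genes. *Wipi2*, the PI3P-binding protein that brings in ATG16L1, read 7.34 with vehicle and 13.6 with IR-61. That was a 1.85-fold higher signal, a difference of 0.89 (spot SD 0.094) at rank 512 from the highest difference. Its dimmer probe read 0.165 and 0.145, a difference of −0.19 (spot SD 0.229), so the probes lay on both sides of 0, and their mean gave 0.35, under the limit. The relative *Wipi1* read 0.255 and 0.225, a difference of −0.18, with −0.70 from its dimmer probe (spot SD 0.229 each). The lipid transfer proteins encoded by *Atg2a* and *Atg2b* gave differences of −0.21 and 0.47. *Atg2a* read 0.183 and 0.158, with a difference of 0.28 without scaling, and *Atg2b*, at 0.102 and 0.141, was the gene nearest to the 1.5-fold limit without passing it (spot SD 0.229 each). *Atg9a*, which encodes the scramblase of the seed vesicles, differed by 0.16, less than its spot SD of 0.229.

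Among the enzymes that conjugate ATG12 to ATG5 and ATG8 to lipid, 1 of 6 genes passed 1.5-fold, against 15.5% of all genes. *Atg10*, the E2-like enzyme for ATG12, read 0.911 and 1.56, a 1.71-fold higher signal with a difference of 0.78 (spot SD 0.094). Its dimmer probe lay on the other side of 0, at 0.284 and 0.204, a difference of −0.48 (spot SD 0.229), and the mean over both was 0.15. The same disagreement was seen for *Atg7*, the E1-like enzyme of both conjugation systems. Its bright probe read 9.52 and 10.4, a difference of 0.13 (spot SD 0.094), and its dim probe 0.212 and 0.122, a difference of −0.80 (spot SD 0.229). *Atg16l1*, which sets the site of ATG8 lipidation, had the lowest value of the group, at 0.514 and 0.402, a difference of −0.36 (spot SD 0.229), or 0.13 without scaling. *Atg5*, *Atg12* and *Atg3*, the E2-like enzyme for ATG8, had differences of 0.29, 0.071 and −0.23, and that of *Atg3* was 0.26 without scaling. The dimmer probe of *Atg12* lay on the other side of 0, at −0.13 (spot SD 0.094 each), and the mean over both was −0.031.

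The ATG4 proteases, which trim ATG8 proteins and free them from lipid, held genes past 1.5-fold on both sides. *Atg4c* read 7.79 with vehicle and 13.4 with IR-61, a 1.72-fold higher signal with a difference of 0.78 (spot SD 0.094). Its other probe gave 0.84, and *Atg4c* was higher by 1.5-fold or more under all 11 settings. *Atg4b*, the member known for the broadest activity on ATG8 proteins, read 0.270 and 0.175. Its signal was 1.55-fold lower, a difference of −0.63 (spot SD 0.229), and the difference was below 0 under all 11 settings, between −0.71 and −0.14. The latter, without scaling, is not past 1.5-fold and is within the spot SD. *Atg4d* and *Atg4a* differed by −0.11 and 0.13, and the spot SD of the dim *Atg4a* was 0.376.

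None of the 5 ATG8 genes passed 1.5-fold, against 15.5% of all genes, and their differences spanned −0.20 to 0.17. *Map1lc3b*, which encodes LC3B, the usual marker of autophagosomes, was printed as 10 spots per array. With vehicle its scaled log2 signal had a lowest spot of 3.89, a median of 4.02 and a highest spot of 4.09, and with IR-61 these were 3.83, 3.93 and 4.06. The spots overlapped between the conditions, and the difference of the means was −0.066 (spot SD 0.026). *Gabarap*, the founding gene of the GABARAP branch, read 28.9 and 25.1, a difference of −0.20 with −0.32 from its dimmer probe (spot SD 0.094 each). *Gabarapl1* of the same branch read 42.7 and 48.1, a difference of 0.17 (spot SD 0.094). *Map1lc3a* and *Gabarapl2* had differences of −0.033 and 0.040, within their spot SD of 0.229 and 0.094. Without scaling all 5 differences were above 0.

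PINK1 and the receptors set in the mitochondrial membrane gave 0 of 4 genes past 1.5-fold, against 15.5% of all genes. *Pink1*, the kinase that accumulates on depolarized mitochondria and recruits Parkin, read 13.4 and 13.1, a difference of −0.031 that is within the spot SD of 0.094. *Fundc1*, a receptor of hypoxia-induced mitophagy, read 4.16 and 5.65, a difference of 0.44 (spot SD 0.094). *Bnip3*, a BCL2-related receptor induced by hypoxia, read 19.6 and 25.9. Its 3 probes gave 0.40, 0.72 and 0.17, all above 0, and *Bnip3* and *Fundc1* were above 0 under all 11 settings without passing 1.5-fold in any but the one without scaling. The related *Bnip3l*, known as NIX, read 67.2 and 65.8, a difference of −0.029 within the spot SD of 0.094, and its 4 probes lay between −0.29 and 0.031.

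**Figure D2:**
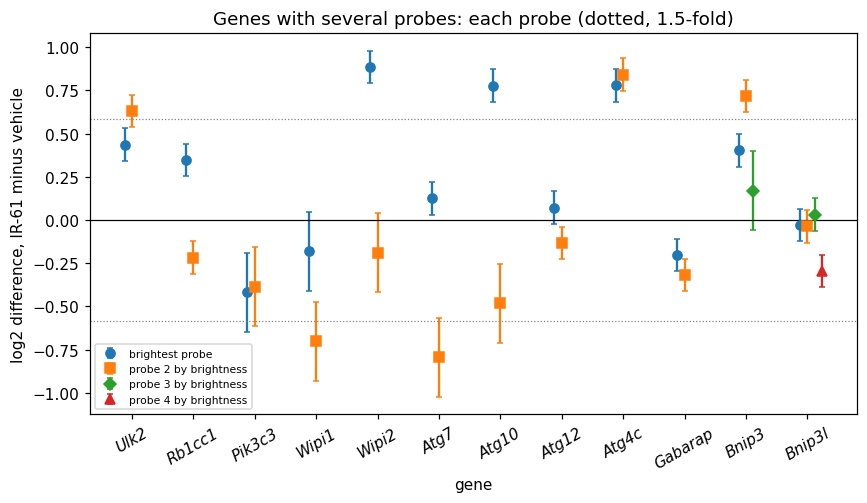
Log2 difference (IR-61 minus vehicle) from each detected probe of the 12 genes with several probes, ordered by brightness, with bars for the spot SD and dotted lines at 1.5-fold. The probes of *Atg4c* lie together, at 0.78 and 0.84, while those of *Wipi2*, *Atg10*, *Atg7* and *Rb1cc1* lie on both sides of 0.

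Of the 40 genes, 28 were read by 1 probe and 12 by several. The probes had the same sign for 6 of the 12 and opposite signs for 6, and in 4 of these, *Wipi2*, *Atg10*, *Atg7* and *Rb1cc1*, they lay over 0.5 apart. Over all 4161 genes with several detected probes 45.7% had opposite signs, close to the share found here. The brighter of the leading probes gave the higher value in 8 of the 12 genes, or 66.7%, and in 65.7% of all such genes. Of the 4 genes called higher, *Atg4c* alone had another probe on the same side, *Ulk1* had no other probe, and *Wipi2* and *Atg10* had another probe on the other side. Each of the 5 genes called lower was read by 1 probe.

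**Figure D3:**
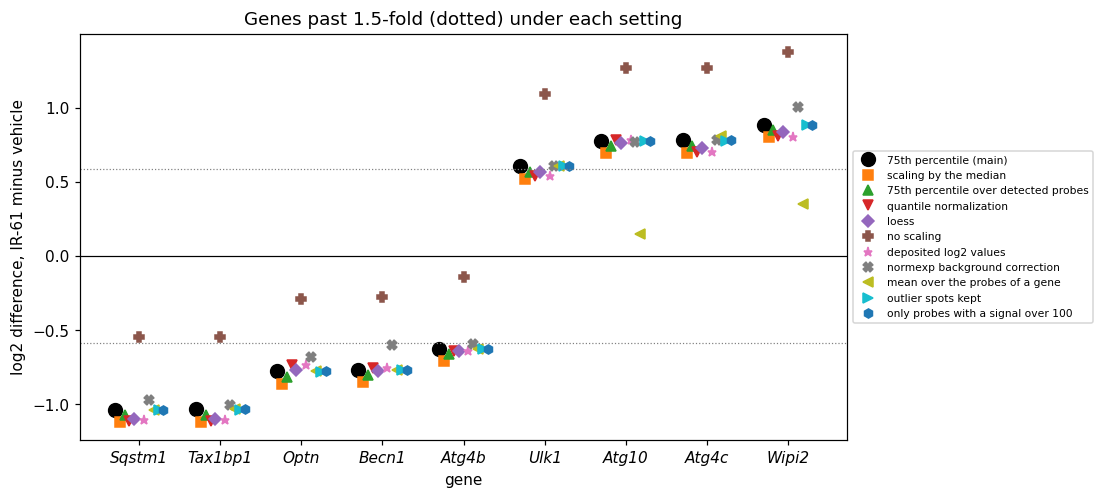
Log2 difference (IR-61 minus vehicle) of the 9 genes past 1.5-fold, 1 symbol per processing setting, with dotted lines at 1.5-fold. Every gene keeps its side of 0 under all 11 settings, *Wipi2* and *Atg10* drop to 0.35 and 0.15 when the probes of a gene are averaged, and all 9 lie highest without scaling.

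Another 45 genes of the pathway were listed for comparison. Of these 44 had a probe, *Calcoco2* being the exception, and 43 were measured on both arrays, while *Atg9b* lacked a probe that was well above background on both. Their median difference was 0.071, 3 were higher and 2 lower by 1.5-fold or more, and 1 was lower by 2-fold or more, against the shares of all genes given above. Among the genes for fusion of autophagosomes with lysosomes, *Rab7*, the late endosomal GTPase, read 5.28 with vehicle and 2.41 with IR-61. It was 2.20-fold lower, a difference of −1.13 (spot SD 0.094), while *Plekhm1*, the adaptor that binds RAB7 and ATG8, read 5.69 and 9.55, a difference of 0.75 (spot SD 0.094). Among receptors of other cargo, *Retreg1*, a receptor of the endoplasmic reticulum, read 0.510 and 0.272, a difference of −0.91 (spot SD 0.229). *Ncoa4*, the receptor of ferritin, read 44.7 and 70.5, a difference of 0.66 (spot SD 0.094). *Rubcn*, which encodes Rubicon, an inhibitor of the Beclin 1 complex that is needed for LC3-associated phagocytosis, read 6.69 and 10.6, a difference of 0.67 (spot SD 0.094). Among the other genes of membrane formation, to which *Rubcn* was assigned, the lowest value was that of *Ei24*, an endoplasmic reticulum protein of autophagosome formation, at −0.54 (spot SD 0.229). In the same group *Atg16l2* had a difference of −0.073 (spot SD 0.094), while its dimmer probe lay past the limit, at −0.91 (spot SD 0.229). Of 10 further mitophagy genes 0 passed 1.5-fold, against 15.5% of all genes. They ran from −0.40 for *Phb2*, an inner membrane receptor, to 0.44 for *Bcl2l13*, an outer membrane receptor. Dimmer probes lay past the limit for *Phb2*, at −0.69 (spot SD 0.160), and *Marchf5*, at 0.70 (spot SD 0.229). The other probes of *Marchf5* gave 0.39 and −0.32 (spot SD 0.094 each). Of the 6 transcriptional regulators 0 passed 1.5-fold either, from −0.26 for *Foxo1* to 0.32 for *Mitf*. *Tfeb*, the regulator of lysosomal and autophagy genes, was picked out after its values were seen, and read 0.877 and 1.02, a difference of 0.22 (spot SD 0.094).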

How the data were processed

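The gene microarray measured total RNA of RAW264.7 cells, 1 culture treated with vehicle control and 1 with IR-61. The authors deposited the intensity of each spot as given by Agilent Feature Extraction, background-subtracted and detrended within the array but not scaled between arrays, with other flags, of value 0 or 1, for outliers, saturation and detection. That software is version 11.0.1.1 per the file headers and 11.0.0.1 in the submitters' processing notes, and the methods of the study name an earlier one. The authors also deposited log2 values per probe. How these were made is not given in the sources used here, and both columns have a median of 7.15 and shared quartiles, as quantile normalization gives.

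Control spots and outlier spots (124 for vehicle, 139 for IR-61) were left out, log2 intensities were averaged per probe and scaled by subtracting the array's 75th percentile. Detection, a signal well above background, held for 77.6% of vehicle probes and 81.2% of IR-61 probes, and none was saturated. Of 39429 probes 27242 were named, by RefSeq accession through a gene table of GRCm38.p6 and 8 by their symbol. The array design uses another assembly, so that table gave names only, and the promoter windows are those RefSeq gives on GRCm38.p6. The spot SD came from probes printed repeatedly, in bins of log2 intensity under 6, from 6 to 10 and 10 or more, which held 67, 118 and 144 probes with vehicle and 57, 133 and 150 with IR-61. The number of arrays limits the precision.

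No test was run. The members and lists were chosen with earlier results of these data known. Values are given in full for genes past 1.5-fold, the highest and lowest gene of each of 8 roles, and genes whose probes lie on both sides of 0 and over 0.5 apart, and for the other autophagy genes past 1.5-fold or at the ends of their role. Further members are named so that each is accounted for, and where both their signals are printed they were chosen after their values were seen. The steps were tested on simulated data. Software was R 4.3.3 (limma 3.58.1) and Python 3.11.15 (matplotlib 3.10.9, numpy 2.4.6, pandas 2.3.3). As 10 alternatives, the arrays were left unscaled or scaled by loess, by quantile normalization, by the median or by the 75th percentile of detected probes alone, and the others were the deposited log2 values, normexp background correction with an offset of 50 on the median spot signal, the mean over the probes of a gene, outlier spots kept, and a signal over 100. For normexp, 4 spots with a background above their signal took the array's median background instead.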

Additional observations from a re-analysis of the deposited data

How the results depend on the processing

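No paired analysis was possible because there was a single array for vehicle and for IR-61, without any test. Values that moved by less than their spot SD are called unchanged. Under the 10 alternatives 173 of 200 values of the 20 genes described in full were unchanged and 27 moved, 20 of them without scaling, 4 with the mean over the probes of a gene (*Rb1cc1*, *Wipi2*, *Atg7* and *Atg10*) and 3 with normexp (*Becn1*, *Wipi2* and *Atg7*). None of the 9 genes past 1.5-fold changed sign, while 7 of the other genes described in full did. Without scaling these were *Atg101* (0.40), *Atg16l1* (0.13), *Atg2a* (0.28), *Gabarap* (0.29) and *Pink1* (0.46). With the mean over probes it was *Atg7* (−0.33), and *Nbr1* stood at −0.015 with scaling by the median and −0.024 with normexp. Without scaling the all-gene median was 0.59 instead of 0.10, which follows from the brighter IR-61 array. This setting moved the median of the 40 genes to 0.49 and that of the other autophagy genes to 0.56. It gave 16 genes higher and 0 lower by 1.5-fold or more, against 50.5% and 1.14% of all genes. The mean over probes gave 2 genes higher by 1.5-fold or more, *Ulk1* and *Atg4c*, against 8.53% of all genes, and a median of −0.046 for the other autophagy genes. With normexp the median of the 40 genes, −0.018, lay above that of all genes, −0.032, the reverse of their order in the main setting, and the cause was not tested. The 5 lower genes passed the limit in every setting but the one without scaling. With normexp 2 genes passed 2-fold, as in the main setting, but they were *Tax1bp1* and, higher, *Wipi2*, and *Sqstm1* stood at −0.97. The filter on signals over 100 left 38 genes, without the dim *Atg4a* and *Calcoco1*. Without replicate cultures no setting gives an error between cultures.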

Other observations

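After the fibroblast markers had been found well above background, other genes of connective tissue were looked up, so these were chosen after their values were seen. *Fn1*, which encodes fibronectin, had a relative signal of 33.2 with vehicle and 41.8 with IR-61, and *Sparc*, a collagen-binding matrix protein, 28.4 and 34.7. *Col3a1*, a fibrillar collagen, read 4.08 and 3.21. *Postn*, which encodes the matrix protein periostin, read 0.670 and 2.02, a difference of 1.59 (spot SD 0.188). *Col5a1*, another fibrillar collagen, read 0.333 and 0.579, and *Acta2*, smooth muscle actin, 1.87 and 2.69. *Thy1*, a surface protein of fibroblasts and T cells, read 0.264 and 0.435, and *Lum*, a matrix proteoglycan, 0.110 and 0.124. All 8 were well above background on both arrays.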
